A study of Mus musculus with 2 samples.

Results

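Cytotoxic CD8 T cells of syngeneic mouse ovarian tumors were examined in 2 single-cell RNA sequencing libraries, 1 from mice given control IgG and 1 from mice given an Activin A neutralizing antibody. The cells were selected on the raw counts of a few genes. Each held at least 1 unique molecular identifier (UMI, a tag that marks 1 captured transcript) of Cd3d, Cd3e and Cd3g together, at least 2 of Cd8a and Cd8b1, none of Cd4, at least 2 of Gzmb and Prf1, at most 1 of Mki67 and Top2a, and at most 4 of C1qa, C1qb and C1qc. Cells were first kept if they had between 1000 and 100000 UMIs from between 1000 and 8500 genes, with mitochondrial transcripts no more than 10% of the total. Of 15156 such cells 1796 met this gate, 943 of 8770 in the control library and 853 of 6386 in the antibody library. All mice were female C57BL/6, 6 to 8 weeks old, with an abraded peritoneal wall and syngeneic ovarian cancer cells (p53-/-, with myc and Hras) placed in the peritoneal cavity. They then received the control IgG or the antibody intraperitoneally, and the tumors grown at the abrasion were pooled and dissociated without selection of cell types. The labels give 7 mice for the control IgG and 8 mice for the antibody over 10 days, and the published text gives another number of days and, for the sequenced experiment, of mice. Because the mice of a group were pooled into 1 library, no difference between the libraries could be tested, and every interval below covers counting error only. The antibody and any difference in handling or sequencing between the libraries cannot be told apart.

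Cytotoxic CD8 T cells kill target cells by releasing granules that hold the pore-forming protein perforin (Prf1) and proteases of the granzyme family, and by death ligands such as Fasl. They also secrete interferon gamma and the chemokines Ccl3, Ccl4 and Ccl5. Under persistent antigen in tumors they acquire inhibitory receptors such as Pdcd1, Lag3 and Havcr2 and the transcription factor Tox, while Tcf7 and Il7r mark naive and memory cells with little killing activity. Activin A is a ligand of the TGF beta family that binds the type II receptors Acvr2a and Acvr2b and signals through Smad2 and Smad3.

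The promoters of 3 granule genes are shown because Gzmb and Prf1 chose the cells and Gzma had the widest gap between the libraries among the granule genes outside the gate. Of 4 effector genes sought in the RefSeq promoter table (build GRCm38.p6), 3 were matched by symbol. The 250 bases before the annotated start lie at chr13:113100982-113101231 on the minus strand for Gzma, chr14:56262335-56262584 on the minus strand for Gzmb and chr10:61297586-61297835 on the plus strand for Prf1. Capitals mark the letters of the RUNX motif TGTGGT and the AP-1 motif TGANTCA, searched on both strands.
Gzma: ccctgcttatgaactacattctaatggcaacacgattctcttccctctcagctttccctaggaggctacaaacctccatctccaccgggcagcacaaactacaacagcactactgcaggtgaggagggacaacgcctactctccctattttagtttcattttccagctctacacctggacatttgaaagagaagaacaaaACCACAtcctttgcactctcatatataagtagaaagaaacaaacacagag
Gzmb: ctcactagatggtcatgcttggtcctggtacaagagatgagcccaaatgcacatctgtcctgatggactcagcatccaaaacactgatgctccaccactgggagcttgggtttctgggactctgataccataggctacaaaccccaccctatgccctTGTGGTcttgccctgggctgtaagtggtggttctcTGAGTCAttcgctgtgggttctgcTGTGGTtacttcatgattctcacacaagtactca
Prf1: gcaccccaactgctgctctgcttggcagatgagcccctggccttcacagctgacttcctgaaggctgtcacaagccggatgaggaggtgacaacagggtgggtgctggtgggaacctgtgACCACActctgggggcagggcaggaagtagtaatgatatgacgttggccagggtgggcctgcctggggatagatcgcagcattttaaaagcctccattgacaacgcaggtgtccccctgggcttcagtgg
Gzmb held 2 RUNX matches and 1 AP-1 match, and Gzma and Prf1 held 1 RUNX match each. The T-box motif GGTGTGA was searched in the same way and its letters were in none of the 3 windows. Among 32851 promoter windows of the same length, 14.0% held the RUNX motif, 6.75% the AP-1 motif and 3.33% the T-box motif.

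The control library held 98174850 UMIs and the antibody library 74117462. The cytotoxic cells had a median of 5481 UMIs and 2210 genes in the control and 4738 UMIs and 2038 genes in the antibody library. Their median mitochondrial share was 3.04% and 2.31%, close to the 2.98% and 2.32% of all kept cells. Barcodes with under 100 UMIs, which hold RNA free of cells, took 6.39% of the control and 6.23% of the antibody UMIs. Among kept cells 19 barcodes occurred in both libraries. None was a cytotoxic cell in both, and 4 were a cytotoxic cell in one library and another kept cell in the other.

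The label of the cells was set against genes outside the gate. Nkg7, a protein of cytotoxic granules, was at 2415 CPM in the control and 2511 CPM in the antibody library (CPM, counts scaled to 1000000 UMIs). After each cell was thinned to 2000 UMIs it was detected in 96.7% and 96.3% of the cytotoxic cells, against 2.04% and 4.88% of B cells (medians of 2851 and 2760.5 UMIs), but also in 92.8% and 94.9% of natural killer (NK) cells. Trac, the constant region of the T cell receptor alpha chain, was at 626 and 604 CPM, against 24.7 and 16.1 CPM in NK cells. The Cd3 conditions of both gates bear on that gap, since the NK cells were chosen without a Cd3 UMI. Klra8, an NK receptor that was not used to select the NK cells, was at 4.11 and 10.1 CPM against 899 and 787 CPM in NK cells. Ncr1 and Klrb1c, which did select the NK cells, were at 2.40 and 3.07 CPM and at 3.26 and 6.13 CPM in the cytotoxic cells. Foxp3, the factor of regulatory T cells, was at 0.514 CPM in the control library and had no UMI in the antibody library. The list of 7 CD4 and regulatory T cell genes that holds it was not low as a whole. It summed to 489 and 592 CPM, led by Ctla4 (358 and 388 CPM), against 1119 and 1289 CPM in CD4 T cells. The 9 gamma delta T cell genes summed to 42.3 and 37.9 CPM, led by Tcrg-C2, and the 4 hemoglobin genes to 0.171 and 0.876 CPM.

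RNA of other cell types was present and unequal between the libraries. The 11 dendritic cell genes summed to 828 CPM in the control and 422 CPM in the antibody library, led by the MHC class II chain Cd74, with Xcr1 at 0 in both. The 13 macrophage genes summed to 224 and 134 CPM, led by Lyz2, and the 8 B cell genes to 101 and 64.4 CPM, led by Igkc. The 8 fibroblast genes summed to 217 and 28.5 CPM, led by Dcn in the control (72.3 CPM) and by Col3a1 in the antibody library (9.86 CPM). The 8 neutrophil genes summed to 31.0 and 11.6 CPM, led by S100a9 in the control (15.8 CPM) and by S100a8 in the antibody library (7.01 CPM), with Ltf and Mpo at 0. The 7 genes of the cancer cells summed to 145 and 303 CPM. They were led by Lgals7 in the control library (74.7 and 59.1 CPM) and by Krt18 in the antibody library (9.09 and 98.1 CPM), and 4 of the 6 tested were above 0 and 2 below. Over 2 UMIs of B cell, neutrophil, dendritic, fibroblast or cancer genes were held by 236 control cells (25.03%) and 85 antibody cells (9.96%). These cells were deeper than the rest, with medians of 7301.5 against 5147 UMIs in the control and 5998 against 4639.5 UMIs in the antibody library. The part of this RNA in the results below was not tested, and values without these cells are given where they differ most.

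Most cells outside the gate were lost at the Cd3, CD8 and granule steps. Of the kept control cells, 6044 held a Cd3 UMI, 2997 of those at least 2 CD8 UMIs, 2902 no Cd4, 2847 at most 4 C1q UMIs, 1952 at most 1 division UMI and 943 at least 2 UMIs of Gzmb and Prf1. The numbers in the antibody library were 4492, 2308, 2250, 2236, 1655 and 853. Just inside the granule threshold, at a Gzmb and Prf1 sum of 2, lay 167 control and 176 antibody cells, and just outside, at 1, lay 290 and 211. At the CD8 threshold 53 and 86 cells lay just inside and 32 and 62 just outside, and at the division threshold 206 and 147 inside and 62 and 47 outside. Cells with 1 Cd4 UMI that met all other conditions numbered 15 and 7, and no cell lay at 4 or 5 C1q UMIs.

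**Figure D1:**
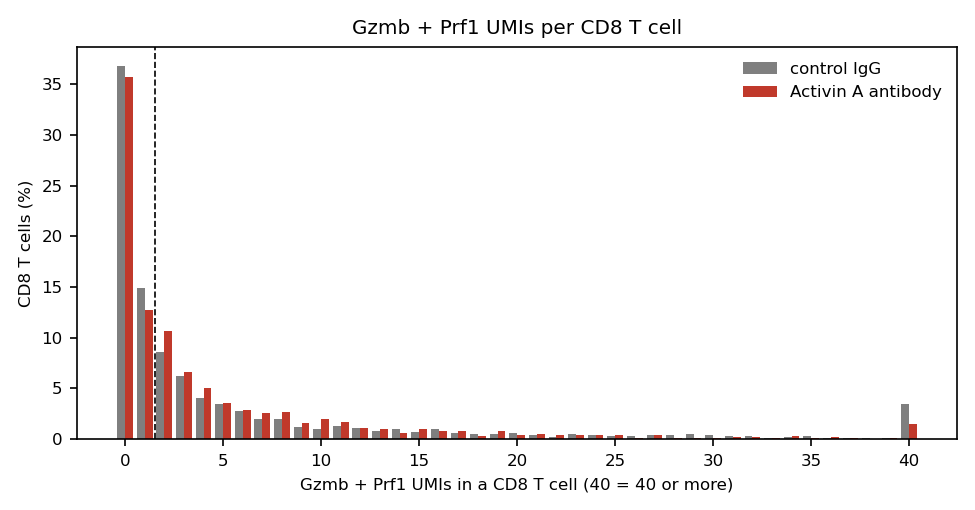
Share of CD8 T cells (vertical axis, %) by the sum of Gzmb and Prf1 UMIs in the cell (horizontal axis, 40 standing for 40 or more) in the control IgG library (grey, 1952 cells) and the Activin A antibody library (red, 1655 cells), with the gate as a dashed line. In both libraries the sums run on across the gate without a gap, and 48.3% and 51.5% of the cells lie to its right.

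Cytotoxic CD8 T cells made up 10.8% of kept control cells (exact binomial 95% interval 10.1 to 11.4%) and 13.4% of kept antibody cells (12.5 to 14.2%), a log2 ratio of antibody over control of 0.31 (0.18 to 0.45). The counting intervals of the shares do not overlap, but the spread between mice is not known. NK cells were also a larger share with the antibody, 2.14% in the control and 2.98% in the antibody library (0.47, 0.17 to 0.77). All CD8 T cells outside division, cytotoxic or not, were 22.3% and 25.9% (0.22, 0.12 to 0.31). Ratios were 0.16 for CD4 T cells, 0.02 for CD8 T cells with Tcf7 or Lef1 but no Gzmb or Prf1 UMI, and −0.19 for B cells. The intervals of these last ratios take in 0. Of CD8 T cells outside division, 48.3% (943 of 1952) and 51.5% (853 of 1655) were cytotoxic, a log2 ratio of 0.09 with an interval from −0.04 to 0.23 that takes in 0. Dividing cytotoxic CD8 T cells, which met the same gate but held at least 2 UMIs of Mki67 and Top2a, were a smaller share with the antibody, 6.99% (613 cells) in the control and 5.81% (371 cells) in the antibody library. With them counted, the log2 ratio of the share among kept cells was 0.11. Of the cytotoxic cells, 236 in the control and 85 in the antibody library held over 2 UMIs of other lineages. Left out of the cytotoxic cells alone, with all kept cells or all CD8 T cells still counted below the line, they gave ratios of 0.58 and 0.36, which follows from the unequal number removed. Left out of the CD8 T cells as well (508 and 172 cells), they gave 49.0% (707 of 1444) and 51.8% (768 of 1483), a log2 ratio of 0.08 (−0.07 to 0.23), in an alternative chosen after seeing the data.

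Both granule genes of the gate were detected in 50.9% of the control and 42.9% of the antibody cells, Gzmb alone in 46.1% and 53.9%, and Prf1 alone in 2.97% and 3.17%. Gzmb was at 1926 and 1627 CPM and Prf1 at 199 and 179 CPM, a description only, as both chose the cells. From here on, paired values give the control library first. CPM is the UMI count summed over the cells of a group and scaled by all UMIs of that group, and since a transcript is counted once at its 3′ end, its length does not enter.

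The most abundant transcripts outside ribosomal protein and mitochondrial genes were Tmsb4x, which binds actin monomers, at 23258 and 21662 CPM, and the chemokine Ccl5 at 15875 and 17534 CPM. Actb and Malat1 followed, and Nkg7 (2415 and 2511 CPM) was the 15th on this list.

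The cytotoxic cells were set against CD8 T cells with no Gzmb or Prf1 UMI and at least 1 of Tcf7 and Lef1 (581 control and 429 antibody cells, median 4033 and 3641 UMIs). Differences past 2-fold were counted on the log2 ratio after 10 CPM were added to both levels, in genes with at least 50 UMIs and without the genes of the gates. In both libraries 37 of 10306 genes (0.359%) were past 2-fold higher in the cytotoxic cells and 62 (0.602%) past 2-fold lower. The comparison is a description, since the cells were chosen on a related set of genes. Of 16 naive and memory genes 11 were lower past 2-fold, with median log2 ratios of −1.61 and −1.48 beside −0.01 and −0.03 over all genes. The survival cytokine receptor Il7r stood at −2.23 and −2.10, the lymph node homing receptor Ccr7 at −1.72 in both, and Bcl2, which guards against apoptosis, at −2.50 and −2.03. Of 15 inhibitory receptor genes 4 were higher past 2-fold, among them Havcr2 (log2 ratios 2.58 and 1.43), Lag3 (1.63 and 1.54) and Entpd1, an enzyme that degrades extracellular ATP (1.83 and 1.64).

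Granule and chemokine genes outside the gate rounded off this profile. Gzma, a granzyme with trypsin-like activity, was the gene that stood highest over the Tcf7 or Lef1 cells, at log2 ratios of 3.14 and 2.63. Ccl3 was at 1.94 and 1.96 and Ccl4 at 1.83 and 1.45. Of 16 granule and death-ligand genes 2 were past 2-fold higher, and of 22 glycolysis and hypoxia genes none was, though their median log2 ratios were 0.65 and 0.63.

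NK cells share the killing machinery and differ in its makeup. Against NK cells (188 and 190 cells, no Cd3, Cd8 or Cd4 UMI), 216 of 9863 genes (2.19%) were past 2-fold higher and 341 (3.46%) past 2-fold lower in the cytotoxic CD8 T cells in both libraries. Of 16 NK receptors 12 were lower, with median log2 ratios of −3.73 and −3.87, and of 19 T cell receptor signalling genes 7 were higher. Both counts are descriptions, as the Cd3 and NK receptor conditions of the gates bear on them. Gzma was at 6841 and 6760 CPM in NK cells against 1762 and 922 CPM in the cytotoxic CD8 T cells, whereas Gzmk, a granzyme of memory-like CD8 T cells, was at 13.7 and 7.30 CPM against 224 and 157 CPM. Against dividing CD8 T cells, 33 of 11282 genes (0.293%) were higher and 363 (3.22%) lower, and 23 of 24 division genes outside the gate were lower, which the limit on Mki67 and Top2a bears on.

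**Figure D2:**
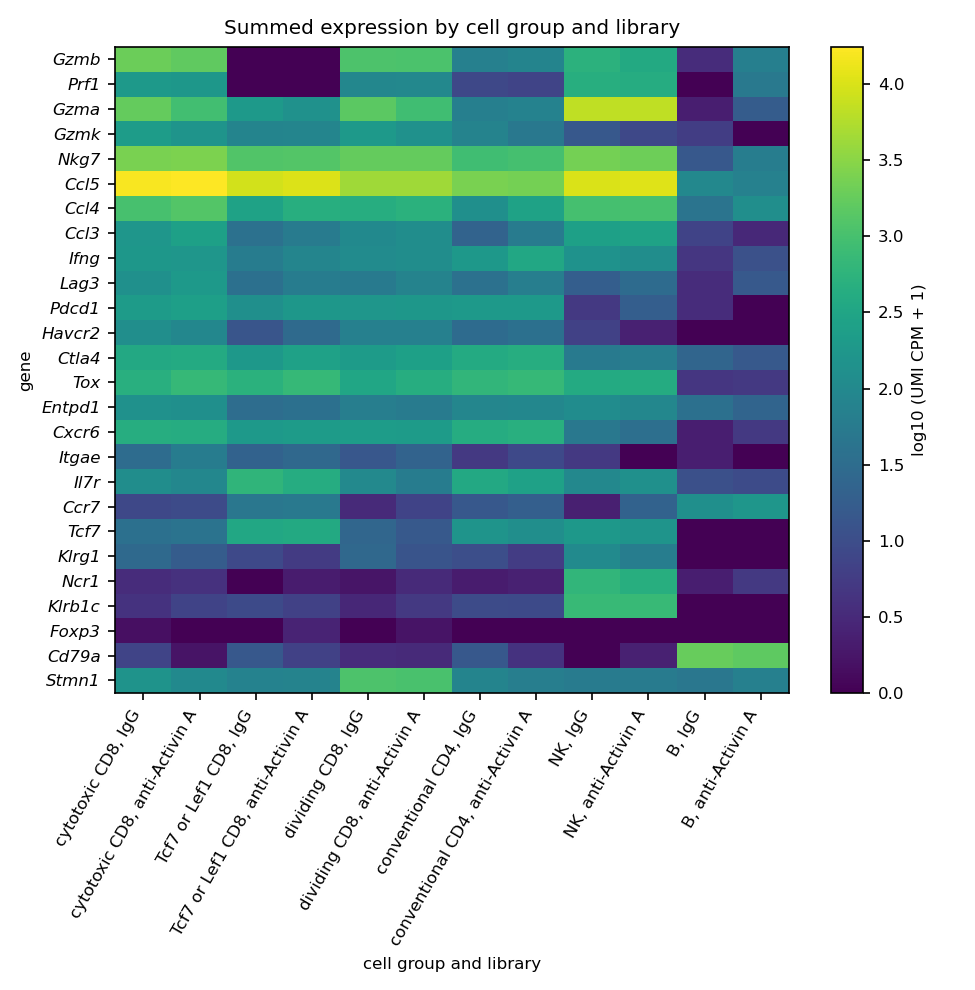
Level of each gene (rows) in each cell group and library (columns) as log10 of UMI CPM plus 1, on summed counts, in control IgG and Activin A antibody libraries. The cytotoxic CD8 T cells are brightest at Ccl5 (15875 and 17534 CPM) and dark at Ncr1, Klrb1c, Foxp3 and Cd79a, and Gzma is brighter in NK cells than in any T cell group.

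Between the libraries, few genes of the cytotoxic cells were past 2-fold. Of 9491 genes tested, 17 (0.179%) were higher and 23 (0.242%) lower with the antibody, and 53.1% had a log2 ratio above 0. In 14 of the 17 and 21 of the 23, 5 cells held at least 50% of the UMIs. The highest were Trf, which carries iron in plasma (21.4 and 255 CPM), Retnla (0.171 and 57.6 CPM), the keratin Krt18 (9.09 and 98.1 CPM) and fibronectin (Fn1, 43.7 and 161 CPM). The lowest were the matrix proteoglycan Dcn (72.3 and 4.82 CPM), the chemokine Ccl2 (41.1 and 2.19 CPM) and complement C3 (68.4 and 9.64 CPM). For Dcn, 5 cells held 92.9% of the control UMIs. With cells of over 2 UMIs of other lineages left out, 4 genes were higher and 5 lower. Over all alternative settings the counts ran from 3 to 55 for higher genes and from 2 to 132 for lower genes.

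Genes past 2-fold that were spread over more cells numbered 5. Among them, Gm11290 (155 and 358 CPM) and Gm10076 (812 and 364 CPM) differed alike in every cell group examined. For Gm10076 the log2 ratio with 10 CPM added was −1.14 in the cytotoxic cells, −1.03 in the Tcf7 or Lef1 CD8 T cells, −1.45 in NK cells, −1.08 in CD4 T cells and −0.86 in B cells. The abundant Gm42418 behaved in the same way, at 2733 and 4549 CPM, with 0.73 in the cytotoxic cells and 0.77 in B cells. Rnf213, a large ubiquitin ligase that interferon induces, was at 97.2 and 206 CPM, a log2 ratio on the same scale of 1.01 beside 0.70 in CD4 T cells, 0.63 in dividing CD8 T cells, 0.54 in NK cells, 0.44 in the Tcf7 or Lef1 CD8 T cells and 0.07 in B cells. The peptide transporter Slc15a2 was at 13.5 and 38.1 CPM.

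**Figure D3:**
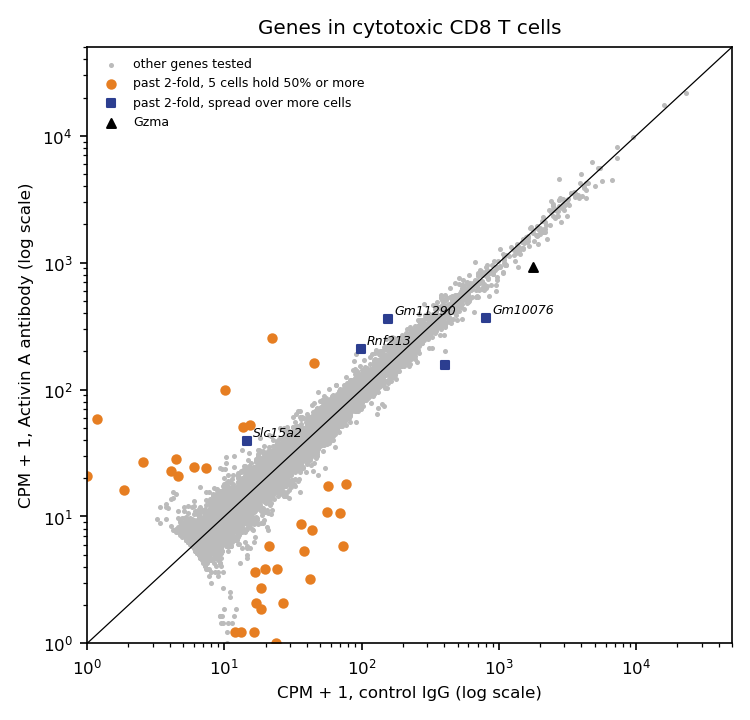
Level of each of 9491 genes in cytotoxic CD8 T cells, CPM plus 1, in the control IgG library (horizontal, log scale) and the Activin A antibody library (vertical, log scale), with the line of equality. Orange points are past 2-fold with at least 50% of UMIs in 5 cells, and blue squares are the 5 past 2-fold that are spread over more cells. Gzma (triangle, 1762 and 922 CPM) lies below the line and near 2-fold.

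Among granule and death-ligand genes the libraries differed by gene and not as a group. Of 16 genes tested outside the gate 7 had a log2 ratio above 0 and 9 below, with a median of −0.02 (−0.04 to 0.07 over the alternative settings) beside 0.02 over all genes, and none was past 2-fold. Medians and directions of lists are on the scale with 10 CPM added, and ratios of single genes below are taken without it. Gzma was at 1762 CPM in the control and 922 CPM in the antibody library, a log2 ratio of −0.93 (−0.99 to −0.88). Gzmk was at 224 and 157 CPM (−0.52, −0.65 to −0.39). Both granzymes were thus lower in the antibody library, whereas Nkg7 was nearly level (log2 ratio 0.06, and 0.20 after subtraction of free RNA scaled on erythroid and cancer genes). That subtraction took 7.09% and 21.1% of the UMIs, and 5 cells held 62.3% and 96.4% of the Krt18 UMIs it was partly scaled on. Fasl, which triggers apoptosis through Fas, was higher, at 65.5 and 90.9 CPM (0.47, 0.27 to 0.68), as was Tnfsf10, the ligand TRAIL, at 73.0 and 93.5 CPM (0.36). Serpinb9, which protects the killer cell from its own granzyme B, was at 45.6 and 62.9 CPM (0.46).

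The Gzma difference lay in both the share of positive cells and the number of UMIs in them. After each cell was thinned to 2000 UMIs, with 6 control and 4 antibody cells too shallow, Gzma was detected in 50.6% of 937 control and 33.8% of 849 antibody cells (60.4% and 41.5% without thinning). B cells, which lack the gene, gave 0.51% and 1.63% where the median cell held 2851 and 2760.5 UMIs, and 290 and 304 CPM were found in free RNA. The 90th percentile was 10 and 5 UMIs per thinned cell, and 4.48% and 2.002% of cells held at least 20. In dividing CD8 T cells Gzma was at 1501 and 878 CPM, in Tcf7 or Lef1 CD8 T cells at 191 and 141 CPM, and in NK cells at 6841 and 6760 CPM. The gap between the libraries was therefore wide in the cytotoxic and dividing CD8 T cells and narrow in NK cells, and this difference was not tested.

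Secreted factors were led by chemokines. Of 14 cytokine and chemokine genes 9 were above 0 and 5 below, with a median log2 ratio of 0.19 that was 0.02 without cells of over 2 UMIs of other lineages, 0.05 with at least 4 UMIs of Gzmb and Prf1 required, 0.08 with the mean of per-cell CPM and −0.0134 after subtraction of free RNA scaled on erythroid and cancer genes. Ccl5 was at 15875 and 17534 CPM (0.14, 0.13 to 0.16), a ratio that was 0.01 without cells of over 2 UMIs of other lineages, 0.06 with the per-cell mean, 0.27 with dividing cells counted and 0.30 after that subtraction. It took a UMI in 96.6% and 97.9% of thinned cells, but also in 22.96% and 10.6% of B cells, and free RNA held it at 2736 and 2787 CPM. Ccl4 was at 1027 and 1278 CPM (0.32; with 10 CPM added 0.31, and 0.19 with at least 4 UMIs of Gzmb and Prf1 required) and Ccl3 at 170 and 256 CPM (0.59, 0.47 to 0.71). Ifng, the macrophage-activating interferon, was at 173 and 170 CPM (−0.03, −0.16 to 0.11), an interval that takes in 0, and Tnf was at 44.4 and 39.9 CPM. Areg, a growth factor of the EGF family, was past 2-fold higher (3.60 and 19.9 CPM), but its UMIs came from 13 control and 9 antibody cells.

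Inhibitory receptors did not differ in one direction. Of 15 genes 8 were above 0 and 7 below, with a median log2 ratio of 0.03 that was −0.07 with at least 4 UMIs of Gzmb and Prf1 required and 0.12 after subtraction of free RNA scaled on erythroid and cancer genes. Lag3, which binds MHC class II, was higher with the antibody, at 132 and 194 CPM (0.56, 0.41 to 0.70), and was detected in 22.5% and 31.2% of thinned cells (45.3% and 53.0% without thinning, 0.51% and 1.63% of thinned B cells). Havcr2 (TIM-3), a receptor for galectin 9 and phosphatidylserine, was lower, at 122 and 92.2 CPM (−0.40, −0.58 to −0.22), though its share of thinned cells was 16.6% and 15.4% (36.5% and 31.2% without thinning, and no thinned B cell). With 10 CPM added its log2 ratio was −0.37, which became −0.16 with dividing cells counted and −0.23 after subtraction of free RNA scaled on erythroid and cancer genes. Pdcd1 (PD-1) was at 213 and 249 CPM (0.22, 0.11 to 0.34; 0.13 without cells of over 2 UMIs of other lineages and 0.34 after that subtraction), Ctla4 at 358 and 388 CPM (0.12) and Tigit at 31.0 and 32.0 CPM (0.04, −0.28 to 0.37). At least 3 of these 5 receptors were found in 94 of 937 thinned control cells (10.0%) and 123 of 849 antibody cells (14.5%), against 11 of 576 (1.91%) and 12 of 415 (2.89%) of the Tcf7 or Lef1 CD8 T cells.

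Regulators of exhaustion and activation were higher with the antibody in nearly every case. Of 16 genes 14 were above 0, with a median log2 ratio of 0.40, and none was past 2-fold. The median was also 0.46 in B cells, 0.38 in Tcf7 or Lef1 CD8 T cells, 0.37 in dividing CD8 T cells, 0.33 in CD4 T cells and 0.23 in NK cells, and 0.09 in all kept cells other than the cytotoxic ones. Tox, a chromatin factor of exhausted T cells, was at 475 and 688 CPM (0.54, 0.46 to 0.61) and in 45.1% and 59.5% of thinned cells (65.2% and 76.4% without thinning; no thinned B cell held it). Nr4a1, which T cell receptor signalling induces, was at 48.7 and 79.5 CPM (0.71; with 10 CPM added 0.61, and 0.24 after subtraction of free RNA scaled on erythroid and cancer genes). Its relative Nr4a3 was at 34.3 and 66.1 CPM (0.95) and Rgs16, a brake on G protein signalling, at 52.3 and 88.1 CPM (0.75). Prdm1 and Maf were the 2 genes below 0.

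Effector transcription factors showed the same direction. Of 14 genes 13 were above 0, with a median log2 ratio of 0.25, and none was past 2-fold. The median was 0.30 in both Tcf7 or Lef1 CD8 T cells and NK cells, 0.33 in B cells and 0.25 in CD4 T cells. It was 0.21 in dividing CD8 T cells and 0.03 in all kept cells other than the cytotoxic ones. Stat3, which relays signals of interleukin receptors, was at 286 and 468 CPM (0.71, 0.62 to 0.80). Tbx21 (T-bet), which drives effector genes, was at 154 and 207 CPM (0.43), and Runx3, a factor of the CD8 lineage, at 412 and 511 CPM (0.31). Zeb2 was the gene below 0.

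Most interferon-stimulated genes likewise had a ratio above 0. Of 23 genes tested 21 were above 0, with a median log2 ratio of 0.39, and none was past 2-fold. The median was 0.28 in Tcf7 or Lef1 CD8 T cells, 0.31 in NK cells and 0.26 in dividing CD8 T cells. It was 0.39 in CD4 T cells, −0.02 in B cells and 0.02 in all kept cells other than the cytotoxic ones. Isg15, a ubiquitin-like modifier, was at 127 and 203 CPM (0.68, 0.54 to 0.82) and Ifit1, which binds viral RNA, at 32.1 and 62.9 CPM (0.97). The exceptions were Iigp1 (19.7 and 9.64 CPM) and Oas1a. The most abundant of the list, Ifi27l2a, was at 674 and 1015 CPM, but B cells held it in shares of 41.3% and 41.5%, so that its shares of 44.1% and 53.2% in the thinned cytotoxic cells stood little above that of another cell type.

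Genes of glucose breakdown differed by gene. Of 22 glycolysis and hypoxia genes 13 were below 0 and 9 above, with a median log2 ratio of −0.21 (−0.44 after subtraction of free RNA scaled on erythroid and cancer genes), beside 4452 of 9491 below 0 over all genes, and none was past 2-fold. The list summed to 7171 and 5563 CPM. Gapdh was at 2239 and 1528 CPM (−0.55, −0.59 to −0.51), Tpi1 at 325 and 212 CPM (−0.62) and Ldha, which makes lactate, at 701 and 531 CPM (−0.40, and −0.62 after that subtraction). Not all genes of the list went this way: Vegfa, an angiogenic factor induced by hypoxia, was at 9.26 and 25.4 CPM, and the hexokinase Hk2 at 16.3 and 27.6 CPM. Median ratios were −0.24 in NK cells, −0.17 in all kept cells other than the cytotoxic ones, −0.09 in Tcf7 or Lef1 CD8 T cells, −0.04 in dividing CD8 T cells, −0.01 in CD4 T cells and 0.05 in B cells.

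Of 22 division genes outside the gate 21 were below 0, with a median log2 ratio of −0.29 that was −0.17 without cells of over 2 UMIs of other lineages and −0.53 after that subtraction of free RNA. Hmgb2, a chromatin protein of cycling cells, was at 871 and 667 CPM (−0.38), Stmn1, which takes microtubules apart, at 148 and 103 CPM (−0.53) and Birc5 (survivin) at 43.2 and 21.7 CPM (−0.99). Pcna, the replication clamp, was the exception at 158 and 164 CPM. These genes were limited by the gate through Mki67 and Top2a, and the dividing cells next to the gate were 62 and 47 at 2 UMIs. In the dividing CD8 T cells themselves the median was −0.07, in CD4 T cells −0.09, in NK cells −0.06, in all kept cells other than the cytotoxic ones 0.01, in Tcf7 or Lef1 CD8 T cells 0.07 and in B cells 0.38.

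Receptors of tissue residence and memory gave mixed values. Itgae (CD103), an integrin that binds E-cadherin and is induced by TGF beta, was at 30.9 and 59.4 CPM (0.94, 0.67 to 1.22), with UMIs in 98 control and 138 antibody cells and in 4.803% and 8.48% of thinned cells (10.4% and 16.2% without thinning), against 0.51% and 0% of thinned B cells. Klrg1, a marker of terminal effector cells, was at 27.3 and 16.4 CPM (−0.73, −1.15 to −0.33), and Il7r at 122 and 90.9 CPM (−0.42). Cxcr6, a chemokine receptor of resident cells, was at 436 and 417 CPM (−0.07, −0.15 to 0.02). As lists, 10 of 18 residency and adhesion genes were above 0 (median 0.08), as were 8 of 16 naive and memory genes (0.02), 2 of 7 chemokine receptors (−0.06), 3 of 12 NK receptors (−0.19) and 6 of 10 costimulatory receptors (0.14). With dividing cells counted the median was −0.08 for naive and memory genes, 0.00469 for NK receptors and 0.30 for costimulatory receptors. After subtraction of free RNA scaled on erythroid and cancer genes it was 0.05 for chemokine receptors and 0.24 for costimulatory receptors. Without cells of over 2 UMIs of other lineages it was −0.07 for naive and memory genes, 0.03 for residency and adhesion genes and −0.10 for NK receptors.

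T cell receptor signalling and immediate-early genes were above 0 more often than the 53.1% of all genes, without a test. The number above 0 was 15 of 19 for T cell receptor signalling (median 0.14, and 0.24 after subtraction of free RNA scaled on erythroid and cancer genes), 10 of 16 for cytokine receptors (0.05) and 7 of 13 for MHC class I (0.05). Immediate-early and heat shock genes, which respond to dissociation as well as to stimulation, were above 0 in 18 of 26 (0.20), with 0.27 in NK and dividing CD8 T cells and 0.18 in all kept cells other than the cytotoxic ones. This median turned to −0.0280 after subtraction of free RNA scaled on erythroid and cancer genes.

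**Figure D4:**
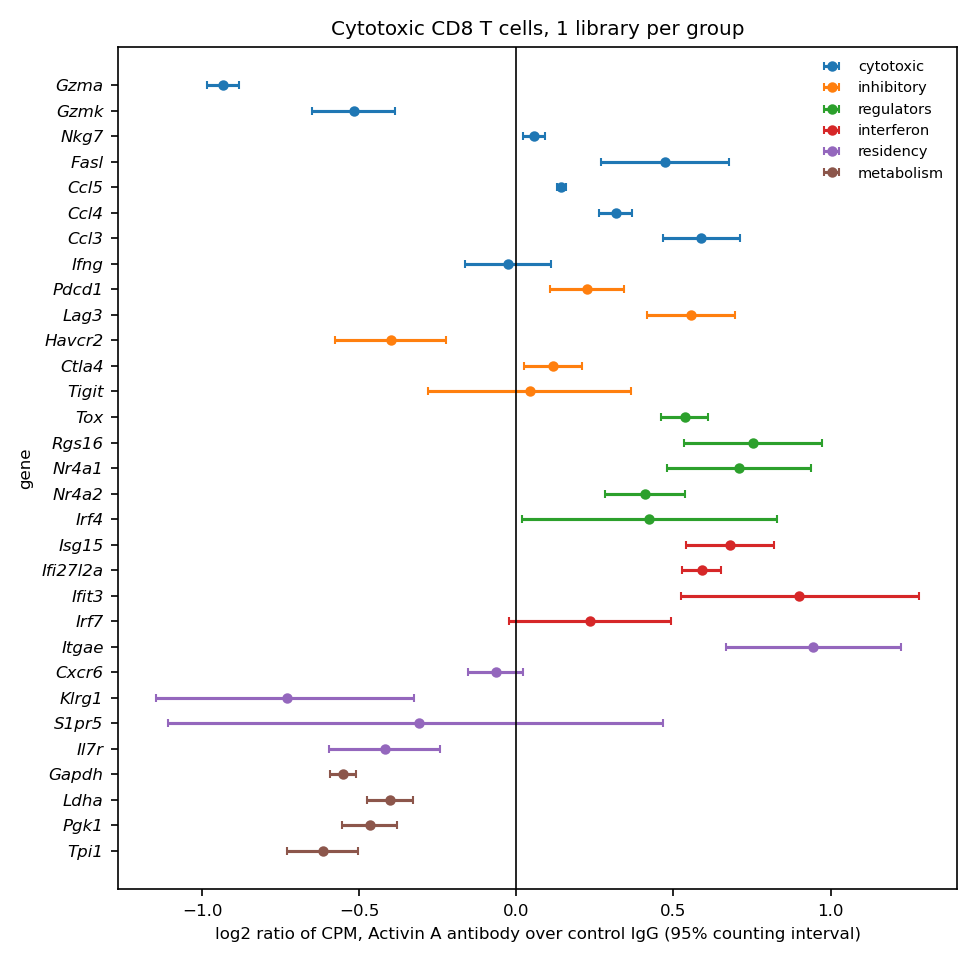
Log2 ratio of CPM, Activin A antibody over control IgG, for named genes of the cytotoxic CD8 T cells (points, coloured by group), with 95% counting intervals as bars and 1 library per group. Of the genes drawn, Gzma (−0.93) lies farthest to the left and Itgae (0.94) farthest to the right, Lag3 (0.56) and Havcr2 (−0.40) lie on opposite sides of 0, and the regulator and interferon genes lie to the right of it.

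Receptors for activin itself were close to the limit of detection. Acvr2a, a type II receptor, was at 5.83 and 3.72 CPM (34 and 17 UMIs), Acvr2b at 0.171 and 0.438 CPM (1 and 2 UMIs), and the type I receptor Acvr1b at 4.11 and 3.72 CPM. The TGF beta receptor Tgfbr2 was much more abundant, at 211 and 241 CPM (0.19), as was Smad7, the inhibitor that this signalling induces, at 167 and 192 CPM (0.20). The co-repressors Ski and Skil were at 85.4 and 114 CPM (0.42) and at 81.1 and 118 CPM (0.54). Over the list of activin and TGF beta receptors and SMADs, 11 of 15 genes were above 0 with a median log2 ratio of 0.03 (0.01 to 0.11 over the alternative settings).

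Chemokines and Gzma were among the genes that varied most from cell to cell, beside genes of other cell types. Over 5057 genes the variance of thinned counts divided by their mean had a median of 1.06 in the control and 1.07 in the antibody library. It was 24.3 and 26.7 for Ccl5, 21.7 and 13.6 for Gzma, 11.8 and 30.1 for Ccl4 and 5.42 and 13.1 for Ccl3. Cd74 reached 24.5 and 19.99, and muscle genes such as Acta1 10.6 and 34.8. The abundant transcripts Malat1 and Tmsb4x were at 8.28 and 8.44 and at 7.62 and 7.57, above Ccl3 in the control library.

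Cells in which a gene was detected were set against the rest, and some of the values rest on few UMIs. Thinned cells with a Havcr2 UMI (156 and 131) held less Klf2, a factor of quiescent recirculating cells, at 41.7 against 156 CPM in the control and 26.7 against 134 CPM in the antibody library, from 13 and 7 UMIs in the Havcr2 cells. Rgs16 was at 92.9 against 37.1 CPM and 137 against 70.3 CPM, from 29 and 36 UMIs. Thinned cells with a Gzma UMI (474 and 287) held more Zeb2, a factor of terminal effectors, at 303 against 178 CPM and 324 against 182 CPM, and less Tox, at 421 against 648 CPM and 582 against 859 CPM. Those with a Tcf7 UMI (56 and 58) held more Slamf6, at 134 against 50.5 CPM and 172 against 44.2 CPM, from 15 and 20 UMIs in the Tcf7 cells. Klrg1 cells were few (50 and 30) and held Gzma at 4450 against 1625 CPM and 3150 against 792 CPM. These are descriptions of cells within 1 library each.

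Detection of variable genes of the T cell receptor beta chain was uneven. Exactly 1 of 35 Trbv genes was detected in 134 control (14.2%) and 113 antibody (13.2%) cytotoxic cells. Of these, 57 of 134 (42.5%, 34.0 to 51.4%) and 53 of 113 (46.9%, 37.5 to 56.5%) had Trbv3, a gene singled out after its values were seen. The share was 35.1% and 51.2% in dividing CD8 T cells, 30.2% and 23.4% in Tcf7 or Lef1 CD8 T cells, and 5.68% and 14.3% in CD4 T cells. Trbv12-2 was next in the cytotoxic cells, at 12.7% and 12.4%. Mice were pooled and most cells gave no Trbv UMI, so the number of clones or mice behind these shares is not seen. Transcripts were counted at the 3′ end, and whether all Trbv genes are detected equally well was not tested.

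**Figure D5:**
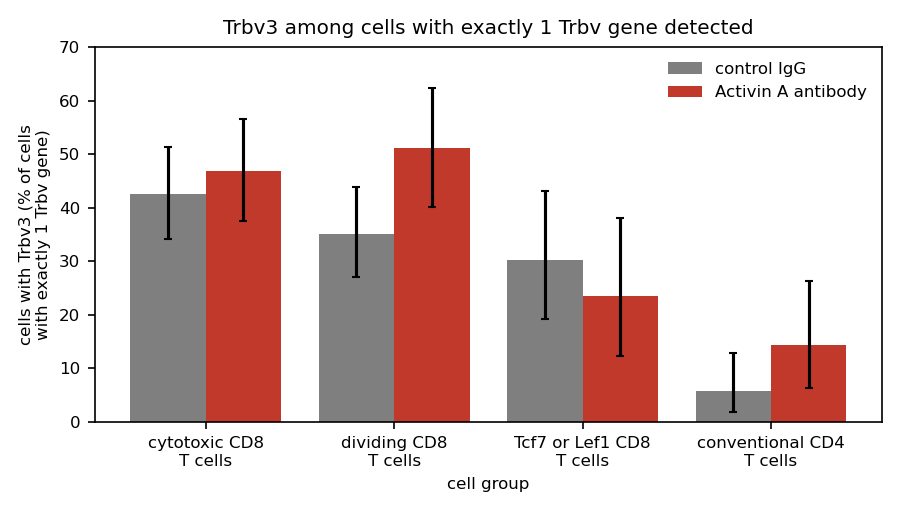
Cells with Trbv3 as a share of cells with exactly 1 Trbv gene detected (vertical axis, %) in 4 T cell groups (horizontal axis) of the control IgG (grey) and Activin A antibody (red) libraries, with exact binomial 95% intervals. Cytotoxic CD8 T cells stand at 42.5% and 46.9% and CD4 T cells at 5.68% and 14.3%.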

How the data were processed

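Raw UMI counts per gene and barcode were deposited by the authors for both libraries, without filtering of barcodes. The submitters' processing notes name Cell Ranger 7.0.1 and mm10, and the file headers name Cell Ranger 4. The libraries were made with droplet 3′ chemistry, for which the labels and the published methods name different versions. Cells were kept and gated as given in the report, with the members and gene lists chosen with earlier results of these data known. Analyses used Python 3.11.15, NumPy 2.4.6, SciPy 1.17.1, pandas 2.3.3 and scanpy 1.11.5, and figures matplotlib 3.10.9. UMIs were summed over the cells of a group and scaled to CPM, with exact Poisson intervals. Shares have exact binomial (Clopper-Pearson) 95% intervals and ratios conditional binomial ones. No test was run, because each group is 1 pooled library. Genes past 2-fold needed 50 UMIs over both libraries and were judged after 10 CPM were added. Named genes were those of the lists, the 12 highest and 12 lowest between libraries, the 15 highest and 15 lowest against Tcf7 or Lef1 CD8 T cells, the 15 most variable and the 15 most abundant. Doublets were not removed: Scrublet set a threshold that called 0 cells, so it did not work, and leaving out its top scores was an alternative instead. Scripts were tested on simulated data. Some genes that the rule names are not reported here. Gene positions came from GENCODE M21, in which 32158 of 32285 gene identifiers were matched.

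CD4 T cells were cells with a Cd3 and a Cd4 UMI and none of Cd8 or Foxp3. NK cells held at least 2 UMIs of Ncr1 and Klrb1c and none of Cd3, Cd8 or Cd4. B cells held at least 3 UMIs of Cd79a, Cd79b and Ms4a1 and none of Cd3.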

Additional observations from a re-analysis of the deposited data

Results flagged for a closer look

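In 7 of 167 listed genes with at least 20 UMIs in each cell group and library (4.19%), and in 38 of 7796 genes overall (0.487%), the ratio of antibody over control ran in opposite directions in cytotoxic CD8 T cells and in Tcf7 or Lef1 CD8 T cells, each with a counting interval that leaves out 0. The difference between the cell groups was not tested, as each group is 1 library. Havcr2 had a log2 ratio of −0.40 in the cytotoxic cells and 1.21 in the Tcf7 or Lef1 cells, where it rests on 33 and 50 UMIs. Satb1, a chromatin organizer of naive T cells, was at 0.52 and −0.24, and Bach2, a repressor of effector genes, at 0.21 and −0.12. The chemokine Ccl9 was at −0.96 and 1.32, with 27 and 44 UMIs in the Tcf7 or Lef1 cells. Cxcl10, a chemokine that attracts Cxcr3-bearing cells, was at 0.61 and −1.06, with 61 and 73 UMIs in the cytotoxic cells. Cd226, an activating receptor, was at −0.12 and 0.19, and the lactate transporter Slc16a3 at −0.38 and 0.79, the latter from 31 and 35 UMIs.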

How the results depend on the processing

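No paired analysis was possible because the labels give 1 library of pooled mice per group, and no replicate could be left out. With no limit on Mki67 and Top2a the log2 ratio of the share among kept cells was 0.11, with no C1q UMIs allowed 0.46, and without cytotoxic cells of over 2 UMIs of other lineages 0.58, for which the ratio among CD8 T cells was 0.36. The 0.58 and 0.36 keep the removed cells in the denominators, and with them left out there too the ratio among CD8 T cells was 0.08. The 0.46 also keeps all kept cells in the denominator, while the cytotoxic cells fell from 943 to 829 in the control and from 853 to 833 in the antibody library. The 17 genes past 2-fold higher became 7 with no division limit, 4 without cells of other-lineage UMIs, 5 with the mean of per-cell CPM, 9 at a minimum of 200 UMIs and 55 with 1 CPM added. The 23 lower genes became 35 with at least 4 UMIs of Gzmb and Prf1, 5 without cells of other-lineage UMIs, 10 with the per-cell mean, 11 at 200 UMIs, 77 with 1 CPM added and 132 after subtraction of free RNA scaled on erythroid and cancer genes. That scaling took 7.09% and 21.1% of the UMIs as free RNA. Of the Krt18 UMIs it was partly scaled on, 5 cells held 62.3% in the control and 96.4% in the antibody library. For Dlk1, 5 cells held 60.8% and 77.1%, so the share taken is not a measure of free RNA alone. A scaling on Saa3, Apoe, Lyz2, Igkc, C1qa, C1qb and C1qc took 3.87% and 4.16%, so the share removed depended on the genes chosen. In alternatives chosen after seeing the data, 3 higher and 11 lower genes were left without cells over 15000 UMIs, and 3 and 2 without genes held by 5 cells. The median log2 ratio turned to 0.00469 for NK receptors with no division limit, and to −0.0134 for cytokines and chemokines and −0.0280 for immediate-early and heat shock genes under the erythroid and cancer scaling. The cause was not tested. Over the alternatives, log2 ratios with 10 CPM added lay between −1.01 and −0.82 for Gzma, 0.39 and 0.66 for Lag3, −0.40 and −0.16 for Havcr2 (the latter with no division limit), 0.46 and 0.67 for Tox, 0.36 and 0.46 for the interferon list and −0.53 and −0.17 for the division list. Among the values recomputed for single genes and lists, 570 stayed close, 51 moved further and 3 turned direction. The shares and the counts past 2-fold are not among these. The share among kept cells moved in 3 of 13 alternatives and the share among CD8 T cells in 1 of 13. The count of higher genes moved in 7 of 20 and that of lower genes in 8 of 20.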
